A study of Mus musculus with 4 samples.

Results

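The feedback that cells run around their oxygen sensor was read out in the stromal cells of long bone through 9 member genes: Egln3, Egln1, Ankrd37, Ndufa4l2, Bnip3, Car9, Hif1a, Epas1 and Hilpda. They were chosen by their difference between mutant and control libraries in earlier results of these data, were found by exact match of the gene symbol, and are 9 of 53703 genes in the deposited tables. The tables hold 4 single-cell RNA-seq libraries from mice of 12 weeks. By the study's methods the cells came from the dissected metaphysis region of femur and tibia. The 2 mutant libraries (Lats2iECKO in the labels, Lats2iΔEC in the study) carry loxP-flanked Lats2 alleles and the Cdh5-CreERT2 transgene. This transgene is driven by a vascular endothelial cadherin promoter and is active in endothelial cells. The mutant mice received tamoxifen some weeks before the age of 12 weeks. The 2 control libraries come from Cre-negative littermates with the same Lats2 alleles and, by the study's methods, the same tamoxifen, although the labels call them untreated. Hematopoietic cells were depleted before capture, and how many mice went into a library is not given in the sources used here, so the spread between libraries may be partly technical.

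When oxygen is plentiful, prolyl hydroxylases such as those encoded by Egln1 (PHD2) and Egln3 (PHD3) mark the HIF alpha proteins, encoded by Hif1a and Epas1, for capture by VHL and destruction. When oxygen falls, HIF alpha proteins accumulate, pair with ARNT and switch on target genes, among them Egln1 and Egln3 themselves, which closes a feedback loop. In growth plate cartilage, which has no vessels, this pathway is known for keeping chondrocytes alive.

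Each barcode was placed in a cell class by marker genes. None of these is a member or among the 68 other HIF pathway genes tested below. Whether the markers themselves respond to HIF was not tested. Of 24599 barcodes past the filters, 12462 fell into 8 classes: endothelial, mural, metaphyseal stroma, osteoblast and 4 chondrocyte zones (superficial, columnar, pre-hypertrophic and hypertrophic). Reticular stroma is given as a further class. Counts were summed per library and class, and levels are CPM, the count scaled to a fixed total per sum. All 8 endothelial, 8 mural, 6 metaphyseal stroma and 7 osteoblast markers exceeded 10 CPM in their own class in every library. The classes were set by these markers, so their level is not a separate check of the classes. Library totals ran from 69636600 to 85899079 UMIs. Libraries shared 7 to 22 barcodes pairwise, against 5.7 to 8.6 for draws from the barcode list. Cre-ERT2 was at 55.0 and 48.2 CPM in mutant endothelial cells and at 0.665 and 0.859 CPM in controls, and Lats2 was at 92.5 and 97.2 against 133 and 123 CPM.

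The hypertrophic, mural, metaphyseal stroma, pre-hypertrophic and reticular stroma classes each had a different leading Leiden cluster in the 2 genotypes. The hypertrophic class held 350 and 318 mutant cells but only 26 and 27 control cells, and 89.5% of the mutant cells lay in 1 Leiden cluster (cluster 2) while 71.7% of the control cells lay in another (cluster 3). The median mitochondrial share of those cells, 0.424% and 0.458% in mutant libraries, stood at 4.11% and 4.22% in control libraries. In mural cells 42.9% of mutant cells lay in cluster 6 and 64.2% of control cells in cluster 25. In metaphyseal stroma 41.2% of mutant cells lay in cluster 19 and 68.4% of control cells in cluster 13. In pre-hypertrophic chondrocytes 30.8% of mutant cells lay in cluster 18 and 37.9% of control cells in cluster 9, and in reticular stroma the leading clusters were 4 and 35. The part of these differences in the results was not tested, except where clusters are compared singly below.

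The start regions of 2 members that are printed here show the short core of the hypoxia response element. Bnip3 had the most matches among the members, and Egln3 had one match. The core was searched as ACGTG and GCGTG on both strands in the 250 bases before the annotated start (GRCm39, GENCODE vM39), and capitals mark the matches. Overlapping matches were counted separately.

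Egln3 (minus strand, chr12:54250674-54250923): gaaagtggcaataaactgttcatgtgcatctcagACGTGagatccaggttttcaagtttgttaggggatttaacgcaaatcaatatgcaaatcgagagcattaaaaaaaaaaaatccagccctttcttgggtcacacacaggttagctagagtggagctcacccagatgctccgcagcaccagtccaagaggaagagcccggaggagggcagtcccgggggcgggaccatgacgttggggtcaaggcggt
Bnip3 (minus strand, chr7:138511254-138511503): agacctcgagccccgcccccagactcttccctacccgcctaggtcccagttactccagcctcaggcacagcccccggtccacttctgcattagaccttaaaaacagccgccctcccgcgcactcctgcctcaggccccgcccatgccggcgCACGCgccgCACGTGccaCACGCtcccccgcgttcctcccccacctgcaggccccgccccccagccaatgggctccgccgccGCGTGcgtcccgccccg

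Egln3 lies at chr12:54225767-54250673 and Bnip3 at chr7:138490690-138511253, both on the minus strand. Bnip3 held 5 matches, the nearest 13 bases before its start, and Egln3 held 1 match 212 bases before it. Of the 9 members, 6 held at least 1 match, and 41.3% of all 21770 promoters of that length did. Ndufa4l2, Car9 and Hilpda held none, which says only that these letters are not in this window.

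The members' values in mutants and controls are a description, since the list was drawn up with this contrast in view. Egln3, Ankrd37, Ndufa4l2 and Bnip3 were higher in both mutant libraries than in both control libraries in all 8 classes and in reticular stroma, while single Leiden clusters, given further on, held exceptions. Egln1 and Hilpda did so in 7 of 8 classes. Of all genes with a mean of at least 1 CPM in a class, the share that separated this way was 28.3% in endothelial cells, 28.7% in mural cells, 22.9% in metaphyseal stroma, 27.4% in osteoblasts, 20.2% in superficial, 20% in columnar, 26.1% in pre-hypertrophic and 28.3% in hypertrophic chondrocytes, and 27% in reticular stroma. Hif1a and Epas1, which encode the sensors' substrates, differed by less than 1 on the log2 scale in each class, in both directions. The edgeR fits called 47 of the member and class pairs higher in mutants. The classes differed in how many of all genes were called, and the share of all genes called in the same direction stands beside each count of members, with nothing read from it because the members were chosen on this contrast.

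In endothelial cells 7 of 8 members that passed the filter on low counts were called higher, beside 18.6% of all genes, and 1 was called lower, beside 17.1%. In mural cells the count was 5 of 8 (15.8% of all genes) with 1 lower (14%). In metaphyseal stroma it was 7 of 8 (7.66%) with 1 lower, Hif1a (5.34%). Osteoblasts had 4 of 8 higher (3.14%) and 0 lower (0.991%), superficial chondrocytes 3 of 9 higher (2.13%) and 0 lower (1.11%), and columnar chondrocytes 5 of 8 higher (8.55%) and 0 lower (5.42%). Pre-hypertrophic chondrocytes had 9 of 9 higher (17.9%) and 0 lower (16.1%), and hypertrophic chondrocytes 7 of 9 higher (9.19%) and 0 lower (8.25%). Reticular stroma had 5 of 8 higher (11%) and 1 lower (9.55%). Car9 was the member that failed the filter where 8 were tested.

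Egln3, the prolyl hydroxylase that HIF induces, ranged in log2 fold change from 0.30 in superficial chondrocytes to 4.94 in metaphyseal stroma over the 8 classes, and was 6.56 ± 0.173 in reticular stroma, at 70.8 and 66.5 against 0.634 and 0.826 CPM. In mural cells its level was 171 and 228 CPM in mutants and 1.27 and 15.9 CPM in controls. In endothelial cells, the class in which Lats2 was deleted, it was 46.1 and 30.9 against 3.33 and 3.09 CPM, a log2 fold change of 3.64 ± 0.242 (SE). The groups did not overlap in either class. In the endothelial Leiden clusters compared below, the log2 ratio of mean CPM + 1 of Egln3 ran from -0.21 (cluster 29) to 2.91 (cluster 30). Cluster 7 held 122 and 181 mutant but 50 and 51 control cells, and cluster 29 held 46 and 49 but 270 and 234. The part of these cell numbers in the class value was not tested. In metaphyseal stroma Egln3 was 33.5 and 17.4 against 0.704 and 0.908 CPM. In osteoblasts it was near its floor in controls, at 0.172 and 0.156 CPM, and at 5.02 and 3.29 CPM in mutants. Cre-ERT2 was at 0 in the osteoblasts of both mutant libraries. In superficial chondrocytes Egln3 was at 46.7 and 47.2 CPM in mutants and 39.4 and 39.2 in controls, and its difference there was 0.30 ± 0.138. Leiden cluster 0 held 55.7% of the mutant and 54.6% of the control cells of that class. Over all cells of cluster 0, of which 43.2% were of that class, Egln3 was 35.8 and 31.2 against 13.4 and 12.9 CPM. That is a log2 ratio of mean CPM + 1 of 1.28. Over all cells of cluster 11, of which 61.8% were of that class, the log2 ratio of Egln3 was -0.19. In pre-hypertrophic chondrocytes it was 18.7 and 21.7 against 2.67 and 1.74 CPM, and in hypertrophic chondrocytes 70.3 and 58.8 against 0 and 12.2 CPM. The mural log2 fold change of 4.55 rests on the control libraries unequally: it was 7.29 without control replicate 2 and 3.66 without control replicate 1.

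Egln1, the main oxygen-dependent hydroxylase of HIF, was less variable. Its log2 fold change was 0.77 ± 0.101 in columnar, 1.94 ± 0.0622 in pre-hypertrophic and 3.32 ± 0.219 in hypertrophic chondrocytes. In the last its levels were 456 and 419 CPM in mutants and 42.5 and 48.7 CPM in controls, on 15 and 16 control counts. Mutant and control cells of that class lay mostly in different Leiden clusters, as given above. In pre-hypertrophic chondrocytes Egln1 was 205 and 206 against 59.9 and 54.6 CPM. In the Leiden clusters compared that were led by pre-hypertrophic chondrocytes, its log2 ratio of mean CPM + 1 ran from 0.25 (cluster 22) to 1.4 (cluster 3). Libraries overlapped in mural cells, at 86.3 and 71.3 against 81.2 and 94.4 CPM, and in reticular stroma, at 73.9 and 57.9 against 56.1 and 60.5 CPM. In endothelial cells Egln1 was 89.2 and 87.3 against 62.9 and 66.1 CPM.

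**Figure D1:**
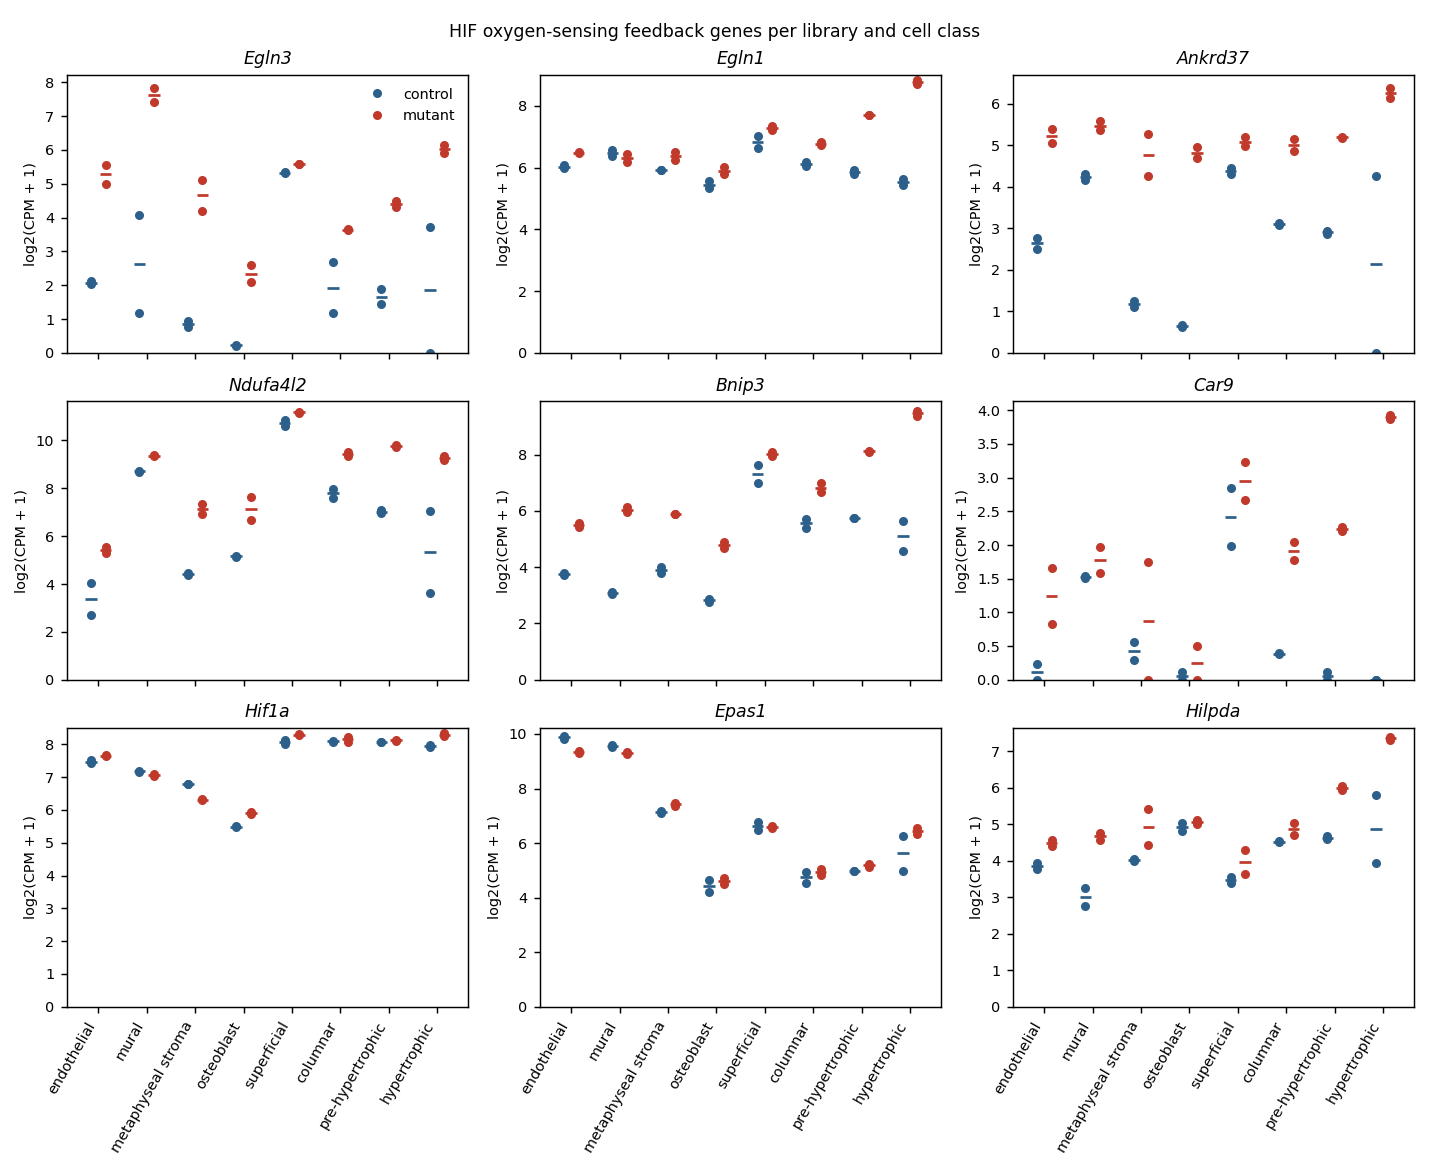
Level of each of the 9 members, as log2(CPM + 1), in the 8 cell classes; each point is 1 library, control in blue and mutant in red, and the bars are the means of the 2 libraries. For Egln3, Ankrd37, Ndufa4l2 and Bnip3 both mutant points lie above both control points in all 8 classes, while Hif1a and Epas1 lie close together.

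Ankrd37, a HIF target with ankyrin repeats, was higher in mutants in each of the 8 classes. In osteoblasts its mean was 27.6 ± 3.49 CPM (SD, n = 2) in mutants and 0.574 ± 0.04 CPM in controls, the largest of its differences at 5.53 ± 0.299, and the groups did not overlap. In metaphyseal stroma it was 38.0 and 18.2 against 1.17 and 1.36 CPM. In superficial chondrocytes it was 35.6 and 30.9 against 20.8 and 18.9 CPM, its smallest difference.

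Ndufa4l2, a mitochondrial protein that HIF induces and that lowers respiratory chain activity, was already at 1821 and 1544 CPM in control superficial chondrocytes, and at 2355 and 2237 CPM in mutants. In pre-hypertrophic chondrocytes it was 907 and 849 against 123 and 136 CPM, and in metaphyseal stroma 161 and 122 against 20.9 and 19.5 CPM. Both of the last have a log2 fold change of 2.85, and with Leiden clusters as classes that of metaphyseal stroma was 1.66 ± 0.275. In mural cells the difference was 0.69 ± 0.071, at 655 and 661 against 409 and 425 CPM.

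Bnip3, a mitophagy receptor, was 274 and 280 CPM in mutant pre-hypertrophic chondrocytes and 53.2 and 53.0 CPM in controls. In hypertrophic chondrocytes it was 752 and 663 against 22.7 and 48.7 CPM. In mural cells it was 61.2 and 69.5 against 7.61 and 7.35 CPM. Its smallest difference, 0.72 ± 0.154, was in superficial chondrocytes.

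Car9, carbonic anhydrase 9, was near its detection floor. It passed the filter in 3 of 8 classes. In hypertrophic chondrocytes it had 48 and 47 counts in mutants (13.6 and 14.3 CPM) and 0 counts in both controls. The 0 allows up to 4.4 CPM over both control libraries (3 counts), so the mutant level was at least 3.17-fold higher, a bound for counting error only. In pre-hypertrophic chondrocytes there were 82 counts in mutants and 1 in controls, a ratio of 89.5 with a 95% exact interval of 15.6 to 3579.0. The log2 fold change of 6.24 there was 5.38 without control replicate 1, 8.44 without control replicate 2 and 8.35 with doublets removed. Superficial chondrocytes, at 5.38 and 8.43 against 6.19 and 2.98 CPM, overlapped.

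Hilpda, which blocks lipolysis at lipid droplets, was 64.8 and 60.3 against 23.0 and 24.4 CPM in pre-hypertrophic chondrocytes. In mural cells it was 22.8 and 26.2 against 5.71 and 8.58 CPM. Osteoblasts overlapped, at 31.2 and 33.7 against 32.1 and 27.3 CPM.

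Hif1a, the HIF alpha subunit of most cells, differed by at most 0.42 on the log2 scale in any of the 8 classes. It was higher in mutant endothelial cells, at 199 and 203 against 182 and 172 CPM, and lower in mutant metaphyseal stroma, at 80.0 and 77.7 against 109 and 110 CPM. Epas1 (HIF-2 alpha), known for its role in endothelium, was highest in endothelial cells in control libraries. In mutant libraries endothelial cells overlapped with mural cells and with reticular stroma (581 and 644 CPM). In endothelial cells Epas1 was 659 and 633 CPM in mutants and 970 and 907 CPM in controls, a log2 fold change of -0.46 ± 0.0587. In mural cells it was 616 and 654 against 727 and 775 CPM. In metaphyseal stroma it was 165 and 175 against 145 and 137 CPM, the other way. With Leiden clusters as classes the metaphyseal stroma value was -0.04 ± 0.0994 and the pre-hypertrophic value -0.06 ± 0.101, where the marker classes gave 0.33 and 0.31.

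**Figure D2:**
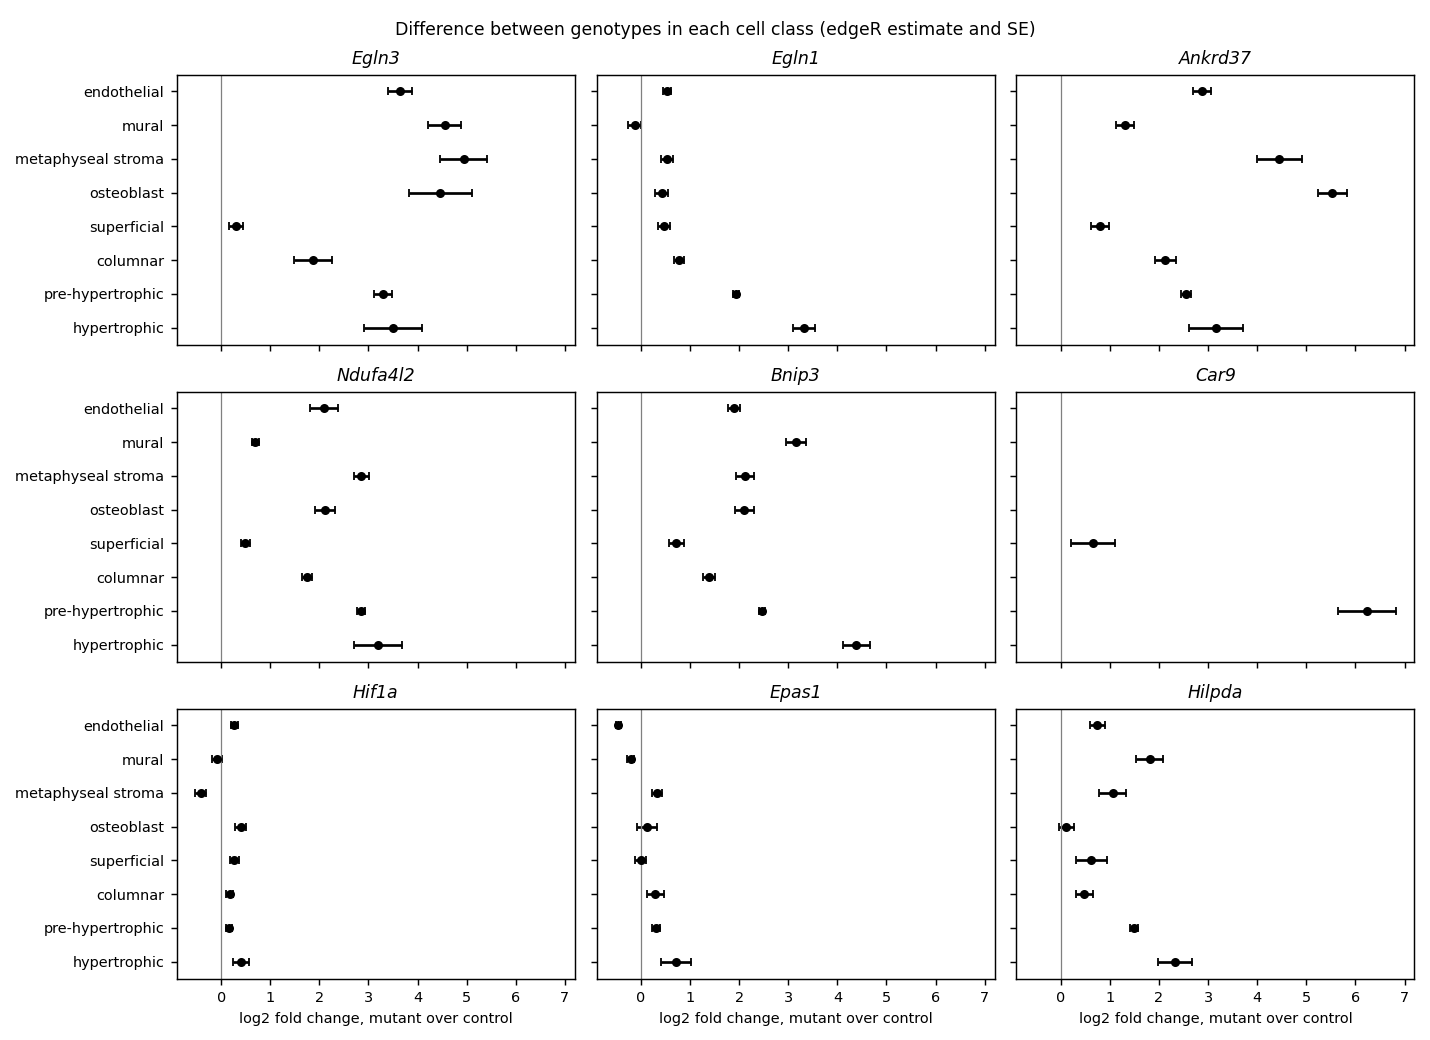
Log2 fold change of mutant over control libraries for each member in each of the 8 classes where it passed the filter on low counts, with bars of 1 standard error from edgeR; Car9 in hypertrophic chondrocytes is left out because controls had 0 counts. Points for Hif1a and Epas1 sit between -0.46 and 0.72, and those for Egln3 reach 4.94.

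In controls the order of classes differed between members. Egln3, Egln1, Ankrd37, Ndufa4l2, Bnip3 and Car9 were highest in superficial chondrocytes, at means of 39.3, 115, 19.9, 1683, 162 and 4.59 CPM. For Ankrd37 superficial chondrocytes overlapped with mural cells, the next class (18.1 ± 1.32 CPM, SD, n = 2). Egln3 fell to 8.6 ± 10.4 CPM in the next class, mural cells, with no overlap. Osteoblasts were lowest for Egln3, Egln1, Ankrd37, Bnip3, Hif1a and Epas1, overlapping with the next class for Egln1 (hypertrophic chondrocytes) and Epas1 (columnar chondrocytes). Hif1a was at 272, 269 and 266 CPM in columnar, superficial and pre-hypertrophic chondrocytes, which overlapped from one to the next. Epas1 was at 938 ± 44.5 CPM in endothelial cells, and at 751 and 749 CPM in mural cells and reticular stroma, which overlapped.

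Over 36 sums of class and library, log2(CPM + 1) of Bnip3 was most like that of Ldha (Pearson r = 0.96), Mif (0.96) and Pgk1 (0.94). Egln3 was most like Ankrd37 (0.84), Maff (0.8) and Aldoa (0.8). Egln1 was most like Eif1b (0.93), Ero1a (0.91) and H2-Ab1 (0.9), and Ankrd37 like Egln3 (0.84), Rps3a3 (0.82) and Gapdh (0.81). Ndufa4l2 was most like Fam162a (0.88), Tpi1 (0.87) and Fbxo2 (0.84), and Car9 like Egln1 (0.91), Eif1b (0.87) and Aldoa (0.86). Hif1a was most like Srebf2 (0.96), Tmbim1 (0.95) and Il6ra (0.94), and Epas1 like Csnk1a1 (0.97), Fermt2 (0.95) and Itga1 (0.95). Hilpda was most like Gm10288 (0.86), H1f0 (0.84) and Pafah1b3 (0.83). Sums of one library share its depth and preparation, and these values describe likeness only.

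Leiden clusters were then compared singly, each named for its leading class and summed over all its cells. Between 33.3% and 99.0% of a cluster's cells were of its leading class, so the clusters are not parts of the classes. In the 5 clusters compared that were led by pre-hypertrophic chondrocytes, Egln3, Egln1, Ankrd37, Ndufa4l2 and Bnip3 were each higher in both mutant libraries. Between 33.3% and 81.9% of the cells of these clusters were of that class. Bnip3 differed in them by a log2 ratio of 1.08 to 1.92, beside a log2 fold change of 2.47 in the class. The comparison took the 18 Leiden clusters that were led by any of the 8 classes and had at least 20 cells in each library. Clusters led by other classes, reticular stroma among them, were left out. Among the 18, Ankrd37 and Ndufa4l2 were higher in both mutant libraries in 16, Bnip3 in 15 and Egln3 in 14. Egln1 was so in 11, Hif1a in 8, Hilpda in 7, Car9 in 6 and Epas1 in 3. Of all gene and cluster pairs with a mean of at least 1 CPM, 21.3% separated this way and 26.2% the other way. Epas1 was lower in both mutant libraries in 8 clusters and Hif1a in 4. All 5 endothelial clusters compared (7, 10, 24, 29 and 30) were among those 8 for Epas1, and in cluster 7 its level was 252 and 286 against 607 and 606 CPM. In mural cluster 17 Egln3 was 4.40 and 16.6 CPM in mutants and 0 in both controls, and in mural cluster 25 it was 3.64 and 3.89 against 1.88 and 1.53 CPM. These levels are far under those of the whole mural class in mutants. Bnip3 was 38.1 and 46.7 against 9.77 and 15.3 CPM in cluster 17, and 8.5 and 14.1 against 7.51 and 5.37 in cluster 25. Its log2 ratios there were 1.68 and 0.72, beside a log2 fold change of 3.16 in the class. Hilpda was 17.6 and 22.6 against 9.77 and 10.7 CPM in cluster 17, and 10.9 and 8.74 against 4.7 and 7.67 in cluster 25. Cluster 6, which held 42.9% of the mutant mural cells, had 240 and 292 mutant but only 2 and 4 control cells and was not compared. Its part in the mural values was not tested. Clusters 13 and 14 were led by metaphyseal stroma, with 85.1% and 51.1% of their cells in that class. In both Egln3 overlapped between genotypes, at 0 and 3.57 against 1.40 and 0 CPM in cluster 13. In cluster 14 no member was higher in both mutant libraries. In cluster 13 Ankrd37, Ndufa4l2, Bnip3 and Epas1 were, with Ndufa4l2 at 22.9 and 23.2 against 10.1 and 12.7 CPM. That is under its level of 161 and 122 CPM in the mutant class. Hif1a and Hilpda were lower in both mutant libraries in cluster 13. Cluster 19, which held 41.2% of the mutant metaphyseal stroma cells, was led by reticular stroma and was not compared. Bnip3 in cluster 14 was 9.45 and 13.6 against 11.7 and 18.1 CPM, also overlapping, and in endothelial cluster 29 it was lower in mutants, at 2.26 and 5.25 against 8.54 and 6.26 CPM.

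The rest of the pathway was tested, in 68 genes in 8 lists that hold no member. Of 515 gene and class pairs, the quasi-likelihood fits of edgeR, adjusted by Benjamini and Hochberg over all genes of a class, called 226 higher and 24 lower in mutants. These genes belong to the same pathway as the members, and the lists were drawn up with earlier results known. The share of pathway genes called higher was 52.3% in endothelial cells, 42.2% in mural cells, 50% in metaphyseal stroma, 29.7% in osteoblasts, 14.1% in superficial, 45.3% in columnar, 60.6% in pre-hypertrophic and 56.2% in hypertrophic chondrocytes. The hypertrophic count of 36 was 16 without mutant replicate 1 and 22 without mutant replicate 2, and the metaphyseal stroma count of 32 was 17 with Leiden clusters as classes. The median log2 fold change of the pathway genes was between 0.20 and 1.25, beside -0.01 to 0.01 for all genes.

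The list of glucose entry, glycolysis and lactate export had 102 of 155 pairs higher and 0 lower by edgeR, with 0 lower at an unadjusted p under 0.05 and 0 by DESeq2. Slc16a3, which exports lactate, rose in mural cells from 0.634 and 2.45 CPM to 25.7 and 15.1 CPM (log2 fold change 3.69 ± 0.524, adjusted p = 7.41e-05). It rose too in metaphyseal stroma (3.86 ± 0.399), osteoblasts (3.26 ± 0.353), pre-hypertrophic (2.65 ± 0.101) and hypertrophic chondrocytes. In the last the controls held 0 and 5 counts, and the value of 4.40 was 4.37 without mutant replicate 1 (adjusted p = 0.0703) and 4.44 without mutant replicate 2 (0.0501), neither of them called. The glucose transporter Slc2a1 rose from 3.29 and 3.86 to 28.0 and 17.4 CPM in metaphyseal stroma, and from 1.12 and 0.857 to 11.7 and 6.58 CPM in osteoblasts. With Leiden clusters as classes the metaphyseal stroma value of Slc2a1 went from 2.69 to 1.30 and was not called (adjusted p = 0.115). Aldoc, an aldolase, rose in columnar (1.41 ± 0.279) and pre-hypertrophic chondrocytes, in the latter from 7.34 and 7.45 to 56.0 and 55.2 CPM. Its columnar value was 1.42 under DESeq2 (adjusted p = 0.0517) and 1.39 with no filter on low counts (0.0785), as large but not called. Ldha, Pfkl and Pgam1, named after their values were seen, were higher in 8 of 8 classes.

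The list of mitochondrial adjustment and mitophagy had 36 of 64 pairs higher and 0 lower by edgeR, again 0 lower at an unadjusted p under 0.05 and 0 by DESeq2. Ak4, an adenylate kinase of the mitochondrial matrix, was called higher in osteoblasts at 2.23 and 4.11 against 0.43 and 0.467 CPM (adjusted p = 0.0195 by edgeR). The Ak4 call was lost under DESeq2 (adjusted p = 0.147), with Leiden clusters as classes (0.0508), and without mutant replicate 2 (0.261), control replicate 1 (0.634) or control replicate 2 (0.579). The secreted and vascular list had 32 of 47 higher and 1 lower. Adm, the vasodilator peptide adrenomedullin, rose in endothelial cells from 2.66 and 2.23 to 49.4 and 29.5 CPM (4.06 ± 0.298, adjusted p = 1.68e-06). It rose in pre-hypertrophic chondrocytes too, from 1.34 and 1.24 to 21.9 and 20.1 CPM. The hypertrophic level of Adm was 82.9 and 91.7 CPM in mutants, with 0 and 1 counts in controls. It also rose in metaphyseal stroma (2.92 ± 0.488) and in superficial chondrocytes (3.13 ± 0.59), where the controls held 1 and 2 counts. The metaphyseal stroma call of Adm was lost with Leiden clusters as classes (1.56, adjusted p = 0.0921), and the superficial one under DESeq2, without mutant replicate 1 (adjusted p = 0.203) and without mutant replicate 2 (0.0868). Vegfa, the main angiogenic factor, rose in superficial chondrocytes from 59.1 and 49.7 to 82.9 and 96.4 CPM (0.77 ± 0.134), a call lost without mutant replicate 2 (adjusted p = 0.0605). In superficial chondrocytes 9 pathway genes were called higher, 2 without mutant replicate 2 and 20 with Leiden clusters as classes.

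The collagen modification and folding list had 28 of 56 pairs higher and 1 lower. Loxl2, which crosslinks collagen, rose in mural cells from 45.0 and 41.8 to 205 and 208 CPM (2.29 ± 0.114). Ero1a, an oxidase of protein folding, rose in hypertrophic chondrocytes from 11.3 and 21.3 to 237 and 192 CPM. The stress and chromatin list had 15 of 48 higher and 1 lower, with Ddit4, an mTORC1 inhibitor, up in mural cells (2.08 ± 0.219) and Ndrg1 up in columnar chondrocytes (1.61 ± 0.147). Ndrg1 was itself the lower call, in mural cells (-0.88 ± 0.117, adjusted p = 4.23e-05). The lipid droplet list had 6 of 31 higher and 2 lower. G0s2, an inhibitor of lipolysis, was called higher in superficial chondrocytes (1.13 ± 0.256, adjusted p = 0.0343 by edgeR). The G0s2 call was lost under DESeq2 (adjusted p = 0.526), without mutant replicate 2 (0.128), without control replicate 2 (0.126) and with the hypertrophic gate of Col10a1, Ibsp and Mmp13 alone (0.16).

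**Figure D3:**
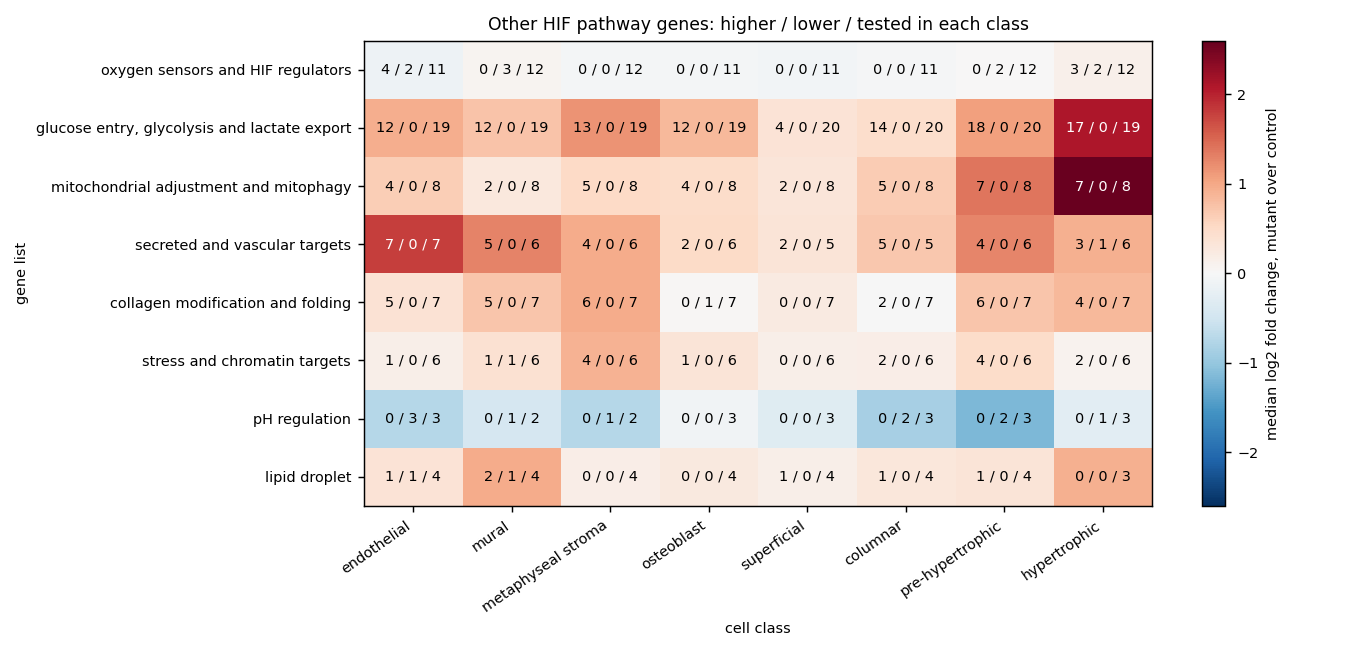
Other HIF pathway genes by list (rows) and cell class (columns); colour gives the median log2 fold change of mutant over control libraries and the text gives genes called higher, lower and tested. The glycolysis list has calls in every class, from 4 of 20 in superficial to 18 of 20 in pre-hypertrophic chondrocytes, and the pH regulation list has no gene called higher.

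The lists of regulators and of pH went differently. The oxygen sensors and HIF regulators had 7 of 92 pairs higher and 9 lower, with class medians from -0.14 to 0.13. In none of the 8 classes were Egln2 (PHD1), Hif1an (factor inhibiting HIF) or Vhl called by edgeR or DESeq2, though 1 of their 24 pairs was higher and 2 were lower at an unadjusted p under 0.05. Arnt, the partner of HIF alpha, was lower in 3 classes, and in endothelial cells was at 61.3 and 63.4 CPM against 94.8 and 89.5 CPM. These regulators were named for their roles after their values were seen. The pH regulation list had 0 of 22 higher and 10 lower by edgeR, with 1 higher at an unadjusted p under 0.05 and 0 by DESeq2. Car2, a cytosolic carbonic anhydrase, fell in columnar chondrocytes from 54.4 and 34.9 to 4.09 and 2.68 CPM (-3.60 ± 0.27). With doublets removed that value was -0.57 ± 0.415 (adjusted p = 0.432 by edgeR) and with Leiden clusters as classes -1.17 ± 0.37 (adjusted p = 0.0686), and neither was called. Car12, a membrane carbonic anhydrase, fell in endothelial cells from 4.32 and 2.58 to 0.488 and 0.621 CPM (-2.61 ± 0.53), a call lost without control replicate 1 (adjusted p = 0.054).

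Other measures moved with genotype. A summed level of 11 genes that respond to handling and dissociation, among them Fos, Jun and Hspa1a, a list chosen after seeing the data, was higher in both mutant libraries in 7 of 8 classes. In endothelial cells it was 5306 and 5204 against 3651 and 3618 CPM, and in hypertrophic chondrocytes 15553 and 14142 against 4961 and 4042 CPM. In superficial chondrocytes it overlapped, at 7057 and 6910 against 8033 and 6630 CPM. The 6 erythroid markers summed to 433 to 795 CPM in mutant and 113 to 301 CPM in control libraries over the 8 classes, and were higher in both mutant libraries in 8 of 8. The 4 hemoglobin genes among them exceeded 10 CPM in every library, while Alas2 reached at most 3.12 CPM and was at 0 in some sums. In mural cells the 8 mural markers summed to 7109 and 7740 CPM in mutants and 12535 and 12447 CPM in controls, and the 6 hypertrophic markers to 678 and 819 against 99.6 and 191 CPM. The 8 reticular stroma markers summed to 1903 and 2323 against 976 and 1045 CPM in mural cells. In metaphyseal stroma its own 6 markers summed to 3677 and 4019 against 6657 and 6315 CPM, and the 7 osteoblast markers to 1191 and 1321 against 3976 and 3810 CPM. The hypertrophic list was higher in both mutant libraries in 6 of 8 classes. The part of these genes in the members' values was not tested, and dates of preparation are not given in the sources used here, so preparation and genotype cannot be told apart. Free RNA was estimated from the 4 hemoglobin genes alone, after the filter on hemoglobin share, with all their counts in a class taken as free RNA. By this estimate it made up 0.74% to 2.12% of the counts in the 8 classes. At the empty-droplet level this share comes to between 0.27 and 0.636 CPM of Egln3 and between 4.23 and 8.17 CPM of Ndufa4l2 in the mutant libraries.

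**Figure D4:**
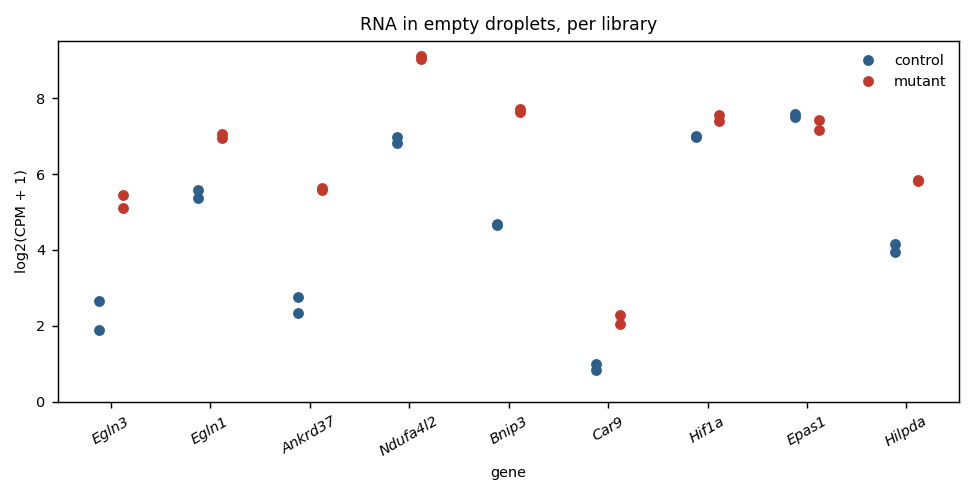
Level of each member, as log2(CPM + 1), in the pooled empty droplets of each library; control in blue and mutant in red, 2 points each. Both mutant points lie above both control points for 8 of 9 members, Epas1 being the exception, as they do for 20.9% of 16487 genes with a mean of at least 1 CPM there.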

How the data were processed

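Single-cell RNA-seq was measured in 4 libraries (10x Chromium V3), 2 mutant and 2 control. The authors trimmed reads with cutadapt 3.5 and, per the labels and methods, counted them with STARsolo 2.7.10a on mm39, and deposited expected counts per gene and barcode, in which reads of several genes are shared by expectation maximisation (9.71% to 10.6% of entries above 0 are not whole). Barcodes with at least 1000 UMIs and 800 genes were kept, and then filtered on mitochondrial share (at most 15%), hemoglobin share (at most 5%) and complexity (at least 0.8), leaving 5119 to 6813 per library. Classes came from capped marker scores (margin 0.1, at least 3 markers). Doublets were kept and, as an alternative, removed at the expected rate by scrublet score, since its own threshold called 2 to 228. The expected counts of a class were added up within each library, rounded and tested with edgeR 4.0.16 (quasi-likelihood, TMM, filterByExpr), with Benjamini-Hochberg adjustment and calls at an adjusted p of at most 0.05. The libraries are the replicates. The test was also run on simulated counts, modelled on the endothelial and osteoblast sums only. CPM intervals and floors cover counting error only.

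The members and lists were chosen with earlier results of these data known. Named genes were the 9 members, the 3 largest called changes per class among other pathway genes whose 2 replicates changed alike, and the 3 genes most like each member among those with at least 20 CPM in a class. A pathway gene that this rule names is not reported here. Other names are said to be chosen after their values were seen. Alternatives were DESeq2 1.42.0, its size factors, other filters, cell sets and classes, removal of free RNA, a replicate block and leaving out each library. The numbers 1 and 2 shared by the groups did not mark pairs by the labels. Analysis used Python 3.11.15, scanpy 1.11.5 and R 4.3.3.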

Additional observations from a re-analysis of the deposited data

Results flagged for a closer look

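Hif1a and Epas1 differed in opposite directions between classes, with every mutant library on the other side of both control libraries. Hif1a was higher in mutant hypertrophic chondrocytes and lower in mutant metaphyseal stroma, a difference in log2 fold change of 0.83, though the hypertrophic value (0.41 ± 0.161) was not called. Epas1 was higher in hypertrophic chondrocytes, at 79.5 and 92.7 against 76.5 and 30.5 CPM, and lower in endothelial cells, a difference of 1.18, and its hypertrophic value (0.72 ± 0.305) was not called either. Neither difference was tested.

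The empty droplets are not part of the comparisons between cells, apart from the estimate of free RNA. In them 8 members were higher in both mutant than in both control libraries, as were 20.9% of 16487 genes with a mean of at least 1 CPM there. Mean levels in mutants and controls were 38.1 and 4.0 CPM for Egln3, 128 and 43.7 CPM for Egln1, 47.5 and 4.87 CPM for Ankrd37 and 536 and 118 CPM for Ndufa4l2. They were 204 and 24.5 CPM for Bnip3, 3.5 and 0.875 CPM for Car9, 178 and 126 CPM for Hif1a and 56.1 and 15.5 CPM for Hilpda.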

How the results depend on the processing

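The count of pathway gene and class pairs called higher was 226, and 24 were lower. A call that also needed an absolute log2 difference of 1 gave 118 higher and 10 lower. DESeq2 gave 183 and 17, and the 20% of cells filter 209 and 18. Leaving out each library gave 205 to 228 higher and 20 to 23 lower. With the replicate block there were 232 higher and 25 lower and 47 members. Deviations of same-numbered libraries correlated between -0.055 and 0.082, and with 2 pairs the numbers were not taken to pair the libraries. Members called higher numbered 47, with the shares of all genes given class by class above, and 31 with the 20% of cells filter. Under that filter 33 of the 50 member pairs called in either direction were tested. Fewer genes were tested as well, in endothelial cells 5885 with 1767 called higher, where the main fit had 14541 with 2711. In superficial chondrocytes 9 pathway genes were called higher, but 4 without mutant replicate 1, 2 without mutant replicate 2, 20 without control replicate 1 and 20 with Leiden clusters as classes. In hypertrophic chondrocytes 36 were, but 16 without mutant replicate 1 and 22 without mutant replicate 2. In metaphyseal stroma 32 were, but 17 with Leiden clusters as classes. The causes were not tested.

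Without control replicate 2, Egln3 was 3.28 in columnar and 10.28 in hypertrophic chondrocytes, where the other control held 0 counts, and without control replicate 1 it was 1.17 and 2.49. Hilpda in metaphyseal stroma went from 1.06 to 0.47 without mutant replicate 1. With Leiden clusters as classes Ankrd37 in metaphyseal stroma went from 4.45 to 2.74 and Hilpda from 1.06 to 0.31, and Epas1 reversed in metaphyseal stroma (-0.04) and pre-hypertrophic chondrocytes (-0.06).

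Within single Leiden clusters, compared after seeing the data, the log2 ratio of mean CPM + 1 reversed, among members called in the class, for Egln3 in clusters 29 (-0.21) and 14 (-0.36), Egln1 in 10 (-0.08), Bnip3 in 24 (-0.03), 29 (-0.82) and 14 (-0.34), Car9 in 37 (-0.37) and Hilpda in 13 (-0.34). It reversed for Hif1a in 24 (-0.06), 3 (-0.09), 9 (-0.37) and 37 (-0.07), and for Epas1 in 14 (-0.19), 3 (-0.18), 9 (-0.25) and 22 (-0.11). These ratios cover all cells of a cluster, whichever class the cells were placed in. The hypertrophic gate of Col10a1, Ibsp and Mmp13 alone, also added after seeing the data, gave 222 higher and 26 lower. The 53 control hypertrophic cells limit that class.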
